A study of Mus musculus with 32 samples.

Results

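Vgf, the granins and the proteins that process prohormones were followed in the frontal cortex (FCtx) of mice that had drunk ethanol and of controls. The members are 10 named genes, Vgf, Scg2, Scg3, Scg5, Chga, Chgb, Pcsk1, Pcsk2, Pcsk1n and Cpe, and every array probe carrying one of these symbols was taken. Of the 10 genes, 9 were on the array, with 14 probes, out of 18138 gene symbols in all, and Cpe had no probe. 8 of them, with 13 probes, were detected well enough to be compared, out of 7926 such symbols. The genes were selected on the difference between ethanol-treated mice and controls in these same arrays, so that difference is given below as a description and no test of it is offered as support.

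The mice were female F1 hybrids of C57BL/6J and FVB/NJ. The labels name 1 direction of the cross, whereas the Methods describe reciprocal crosses. 20 mice had a choice between 20% ethanol and water in a drinking in the dark schedule that ran over 20 days, and 12 control mice had no ethanol. Total RNA from the dorsal part of 1 rostral slice per mouse was hybridised to 1 Illumina MouseRef-8 v2.0 array per mouse, on 4 chips of 8 arrays. Chips 1 and 2 held only ethanol-treated mice and chip 4 only controls. Chip 3 held 4 ethanol-treated mice, all at odd positions on the chip (A, C, E and G), and 4 controls, all at even positions (B, D, F and H). Treatment and chip can therefore be told apart only on chip 3, and there treatment and odd or even position cannot be told apart. A tissue piece holds many cell types, and fewer cells of a type and less RNA per cell cannot be told apart.

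The granins are acidic proteins that are packed with peptide hormones into dense-core granules, the regulated secretory vesicles of neurons and endocrine cells. Inside the granule, propeptides are cut at pairs of basic residues by the prohormone convertases (PC1/3 from Pcsk1 and PC2 from Pcsk2), the exposed basic residues are trimmed by carboxypeptidase E (Cpe), and the peptides are released when the neuron fires. Scg5 encodes 7B2, the chaperone that PC2 needs to mature, and Pcsk1n encodes proSAAS, which inhibits PC1/3. Vgf, named after its induction by nerve growth factor, is itself a propeptide of neurons, and its transcription is known to follow neurotrophins and neuronal activity.

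In the RefSeq annotation of GRCm38.p6, Vgf lies on chromosome 5, Chga on 12, Chgb, Scg5 and Pcsk2 on 2, Scg2 on 1, Scg3 on 9, Pcsk1 on 13 and Pcsk1n on X. Several genes had more than 1 probe, and each such probe is called here by the base of the transcript at which the deposited annotation starts it. Pairs of probes are shown for the genes whose results depended on the probe. Chga had 3 probes, starting at bases 622, 1374 and 1593, of which the first differed in direction from the others.
Chga at base 622: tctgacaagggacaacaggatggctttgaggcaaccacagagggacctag
Chga at base 1374: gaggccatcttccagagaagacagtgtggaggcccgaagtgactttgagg
Pcsk2 had 4 probes. The pair shown had the same sign in each of the 5 comparisons made here, with −0.21 and −0.41 on chip 3, a gap that was not tested. This pair, annotated at base 2088 and named a and b, shares 49 of 50 bases and is shifted by 1 base, and the base that each has alone is in capitals.
Pcsk2 at base 2088, a: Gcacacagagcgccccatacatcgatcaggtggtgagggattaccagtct
Pcsk2 at base 2088, b: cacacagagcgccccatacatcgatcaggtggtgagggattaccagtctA
The pair at bases 4499 and 4505 share 44 bases. Probes that share most of their bases read nearly the same stretch of RNA, and they are not independent measurements of the gene. All values are transformed, quantile-normalized intensities on a log2 scale, on which the levels of different probes cannot be set against each other.

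Vgf was lower in the ethanol-treated mice, and it had the largest difference of the 13 probes. Its value was between 9.82 and 10.80, with a median of 10.44, in the 20 ethanol-treated mice, and between 10.66 and 11.44, with a median of 10.98, in the 12 controls. 16 of 20 ethanol-treated mice were below the lowest control, and 9 of 12 controls were above the highest ethanol-treated mouse. The difference was −0.57 ± 0.09 (SE of the limma fit, 20 against 12 arrays), or 1.48-fold lower. Of the 13 probes 1, that of Vgf, passed an FDR of 1%, beside 8.25% of all probes tested, and since the genes were selected on this comparison nothing is read from that count. With chip as a fixed block, which leaves the difference within chip 3, Vgf did not pass (−0.43 ± 0.17, limma adjusted p = 0.14), 0 of 13 probes did, and 21 in place of 840 passed over the array. With an FDR of 10% and at least a 1.1-fold change as the rule, 5 of 13 passed (Vgf, the 3 Chga probes and Scg3), beside 15.0% of all.

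**Figure D1:**
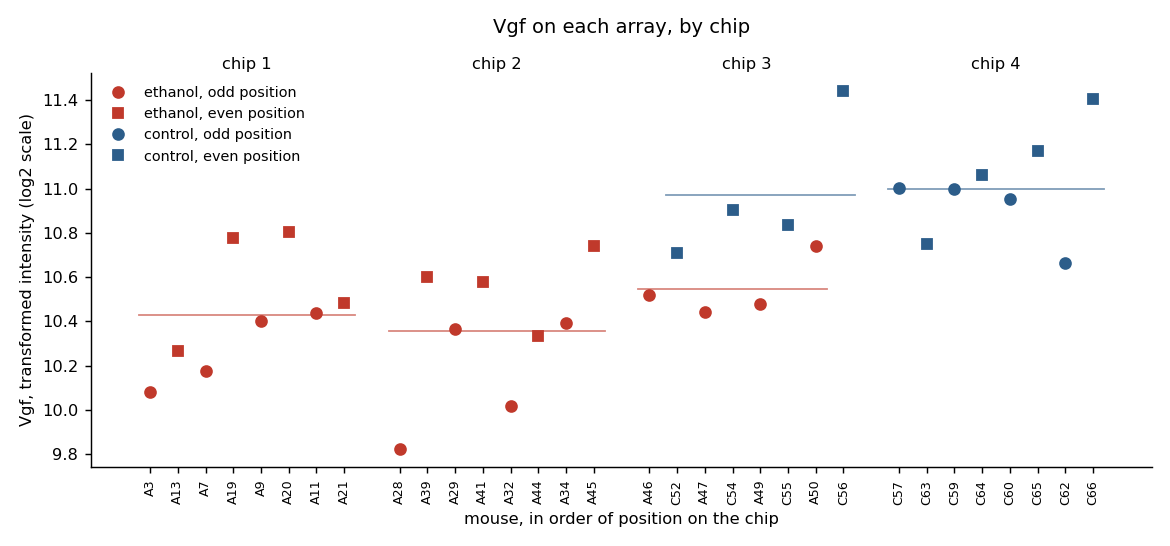
Vgf on each of the 32 arrays (y axis, transformed intensity on a log2 scale), in the order of the positions on chips 1 to 4. Red points are ethanol-treated mice, blue points controls, circles odd and squares even positions, and lines the mean of each group on each chip. The means of ethanol-treated mice lie between 10.36 and 10.54 on their 3 chips, and those of controls are 10.97 and 11.001.

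On chip 3, where both groups were hybridised together, Vgf was 10.52, 10.44, 10.48 and 10.74 in the ethanol-treated mice A46, A47, A49 and A50, and 10.71, 10.90, 10.84 and 11.44 in the controls C52, C54, C55 and C56. The groups overlapped by 1 pair, A50 above C52, and 15 of 16 pairs of mice had the lower value in the ethanol-treated mouse. The difference on chip 3 was −0.43 ± 0.12, which did not pass the FDR of 1% in the fit of these 8 arrays (limma adjusted p = 0.031), and control C56, the highest of all 32 arrays, contributed to it (without it the difference was −0.27, the smallest value over the arrays left out in turn). Between chips 1 and 2 and chip 4 the difference was −0.61 ± 0.10. Control C66, the array with the fewest detected probes (9480), had the highest Vgf after C56, and without it the difference over all arrays was −0.53.

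Vgf also differed between odd and even positions on the chip, a comparison that the selection of the genes did not use. On each chip the even positions held the higher mouse numbers, so position and the order of mice cannot be told apart. Over chips 1, 2 and 4, on each of which every mouse had the same treatment, the 12 arrays at odd positions were lower than the 12 at even positions by a log2 difference of −0.31 ± 0.08 (limma with chip as a block, adjusted p = 0.012), which missed the FDR of 1% that 3.70% of all probes passed, and met it with array weights (−0.29, adjusted p = 0.0098). On chip 1 the means were 10.27 at odd and 10.58 at even positions, on chip 2 they were 10.15 and 10.56, and on chip 4, among controls, 10.90 and 11.10. All 3 chips had the lower mean at odd positions. Within odd positions alone the ethanol-treated mice, on chips 1, 2 and 3, were lower than the controls, all on chip 4, by −0.58. Within even positions they were lower by −0.46, where chips 1 and 2 are set against chips 3 and 4. In both sets treatment and chip cannot be told apart. With chip and position both in the fit, the estimate was −0.12, and Vgf did not pass the FDR of 1%. The part of position in the difference of Vgf was not tested. That estimate takes the difference on chip 3 less the odd-even difference of the other chips. Whether the odd-even difference differed between ethanol-treated mice and controls was asked in an interaction term, which no probe of the array passed at an FDR of 1% (for Vgf −0.17, limma adjusted p = 0.93), with an unadjusted p below 0.05 for 3 of the 13 probes and 5.71% of all.

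No difference of Vgf between chips of a single treatment passed the test. Among ethanol-treated mice chip 1 exceeded chip 2 by 0.07 (95% interval −0.17 to 0.32), and among controls at even positions chip 3 differed from chip 4 by −0.12 (−0.42 to 0.17). In those comparisons 0 of the 13 probes passed the FDR of 1% in limma, beside 0.00982% and 1.61% of all probes, and 5 of 13 had an unadjusted p below 0.05 in each, beside 14.9% and 22.6% of all.

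The granins, which Vgf resembles in its packing into granules, did not share 1 direction. For Chga, encoding chromogranin A, the probe at base 1593 was lower in ethanol-treated mice by −0.18 ± 0.05 and the probe at base 1374 by −0.16 ± 0.06, whereas the probe at base 622 was higher by 0.22 ± 0.07. On chip 3 the same probes differed by −0.29, −0.20 and 0.20. The probe at base 1593 read between 8.91 and 9.12 in the 4 ethanol-treated mice of chip 3 and 9.27, 9.38, 9.29 and 9.38 in its controls, with no overlap, and it passed the FDR of 1% there. Across arrays the probes of Chga hardly varied together once each array was centred on its set of 4 arrays of the same chip and position parity, with Pearson's r between −0.12 and 0.13 over the 3 pairs of probes and 32 arrays. Even the overlapping Pcsk2 probes had a centred r of only 0.35 (49 shared bases) and 0.30 (44 shared bases).

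Chgb, encoding chromogranin B, was lower on chip 3 in all 4 ethanol-treated mice (11.19, 11.28, 11.10 and 11.18) than in all 4 controls (11.37, 11.41, 11.46 and 11.37), a difference of −0.22 ± 0.06. Over all arrays the difference was −0.05 ± 0.04, and between chips 1 and 2 and chip 4 it was 0.00 ± 0.05. At odd positions of chips 1, 2 and 4 Chgb was lower than at even positions by −0.12 ± 0.04 (limma adjusted p = 0.074). Scg2, the precursor of secretoneurin, was between 10.39 and 10.996 in ethanol-treated mice and between 10.27 and 10.83 in controls, a difference of 0.12 ± 0.06, and 0.08 ± 0.08 on chip 3.

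Scg3 and Scg5 had opposite signs on chip 3 and on the other chips. Scg3 encodes a granin that binds chromogranin A at the granule membrane. It was higher by 0.29 ± 0.06 when chips 1 and 2 were set against chip 4, and lower by −0.19 ± 0.07 on chip 3. Scg5 was lower by −0.30 ± 0.06 between those chips and higher by 0.20 ± 0.06 on chip 3, where its 4 ethanol-treated mice (12.54, 12.49, 12.48 and 12.44) were above all 4 controls (12.27, 12.19, 12.34 and 12.34). The controls of the 2 chips also differed from each other in these genes. At even positions, controls on chip 3 exceeded those on chip 4 in Scg3 by 0.39 ± 0.09 (limma adjusted p = 0.021) and were below them in Scg5 by −0.45 ± 0.11 (limma adjusted p = 0.023), beside −0.12 for Vgf. Neither passed the FDR of 1%, which Scg3 did with array weights (0.40, adjusted p = 0.0094).

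**Figure D2:**
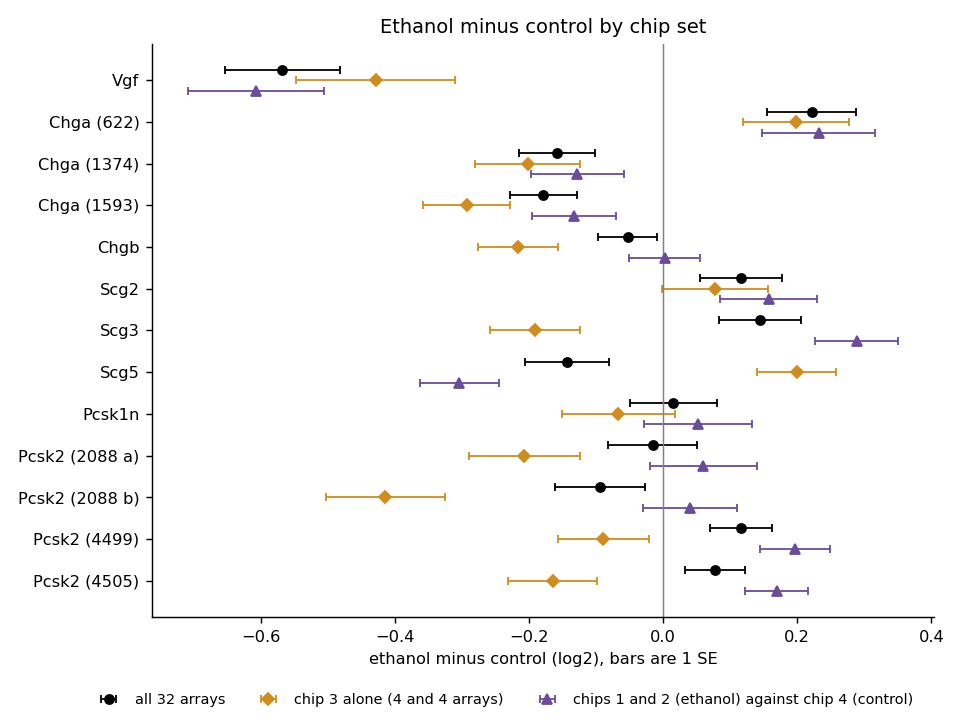
Ethanol minus control on the log2 scale for each of the 13 probes (x axis), over all 32 arrays (black), on chip 3 alone (orange, 4 against 4 arrays) and for chips 1 and 2 against chip 4 (purple), with bars of 1 SE. Vgf is negative in all 3 sets, at −0.57, −0.43 and −0.61, and Scg3, Scg5, Pcsk1n and the 4 Pcsk2 probes have opposite signs on chip 3 and on the other chips, with Chgb at −0.22 and 0.00.

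Of the convertases, Pcsk1 was not detected: its probe had a detection p-value below 0.01 on 0 of 32 arrays (the lowest was 0.102), with signals of 131 to 181 units. Its level is therefore not compared. The probes of Snap25 and Nefl, genes abundant in neurons, were likewise detected on 0 arrays, so that a probe without signal does not show that a transcript is missing.

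For Pcsk2 the difference depended on the probe. The probe 2088 b was lower on chip 3 by −0.41 ± 0.09, with 10.83, 10.74, 10.69 and 10.67 in ethanol-treated mice and 10.92, 11.44, 11.04 and 11.18 in controls, and no overlap between the groups. It was the only probe of the 13 besides Chga at base 1593 to pass the FDR of 1% on chip 3, or 2 of 13, beside 3.23% of all probes, a count that again cannot be read as support. Without any 1 of the 8 mice of chip 3 the count was 0 or 1. The groups of chip 3 did not overlap for 4 of the 13 probes (these 2, Chgb and Scg5), beside 15.2% of all probes, and nothing is read from this count either. Its neighbour 2088 a differed by −0.21 ± 0.08 on chip 3, and the probes at bases 4499 and 4505 by −0.09 ± 0.07 and −0.16 ± 0.07. Between chips 1 and 2 and chip 4 all 4 probes of Pcsk2 were higher in ethanol-treated mice, by 0.04 to 0.20.

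Pcsk2 was also the gene that passed the test of odd against even positions, which coincide with the order of mice. The selection of the genes did not use this test. Over chips 1, 2 and 4 the odd positions were below the even ones by −0.22 ± 0.05 for 2088 a (limma adjusted p = 0.0078) and by −0.19 ± 0.05 for 2088 b (limma adjusted p = 0.0082). These were 2 of the 13 probes, beside 3.70% of all. The probes at bases 4499 (0.05) and 4505 (0.00) of the same transcript did not pass. With the arrays scaled to a common median in place of quantiles, the differences of 2088 a and b were −0.13 and −0.11, and 0 probes of the array passed. Scaling by the median, normexp background correction and testing all probes of the array each left neither probe past the FDR of 1%. Of the 13 probes, 12 were lower at odd positions, with a median of −0.10, beside a median of 0.00 over all probes.

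Pcsk1n differed by 0.01 ± 0.06 between ethanol-treated mice and controls. At odd positions it was below even positions by −0.18 ± 0.06 (limma adjusted p = 0.031), and on chip 2 its 4 odd arrays, between 10.46 and 10.56, were all below the 4 even ones, between 10.68 and 10.93. Between chips 1 and 2 it differed by 0.28 ± 0.07 (limma adjusted p = 0.079).

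**Figure D3:**
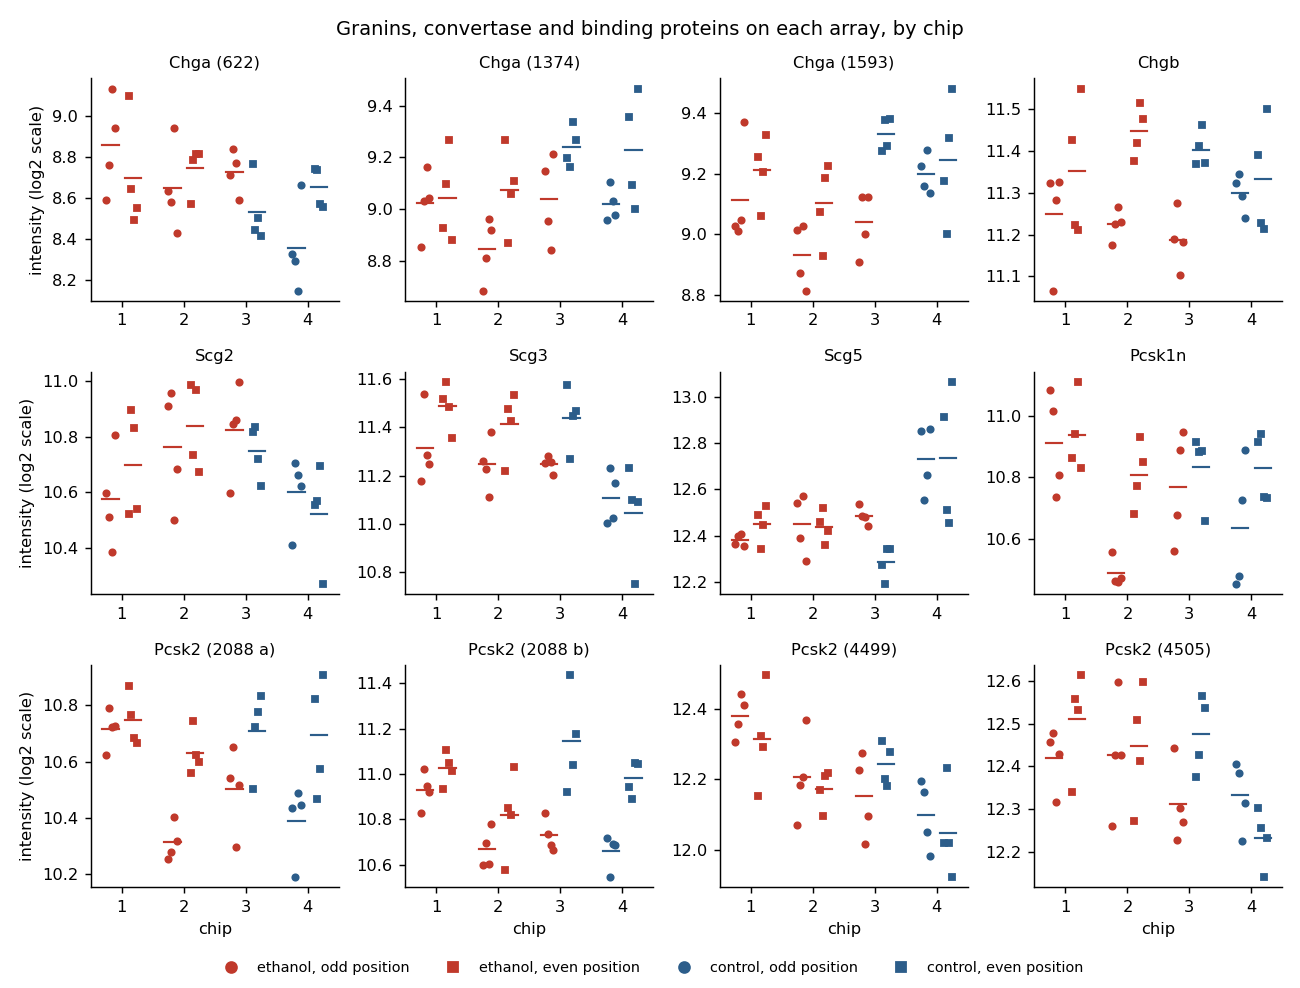
The other 12 probes on each array (y axes, transformed intensity on a log2 scale, a scale for each panel) by chip (x axes), with ethanol-treated mice in red, controls in blue, odd positions as circles, even positions as squares, and a line at the mean of each set of 4 arrays. Scg5 and Scg3 of controls differ between chips 3 and 4, and Pcsk1n and Pcsk2 at base 2088 differ between odd and even positions of chip 2.

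**Figure D4:**
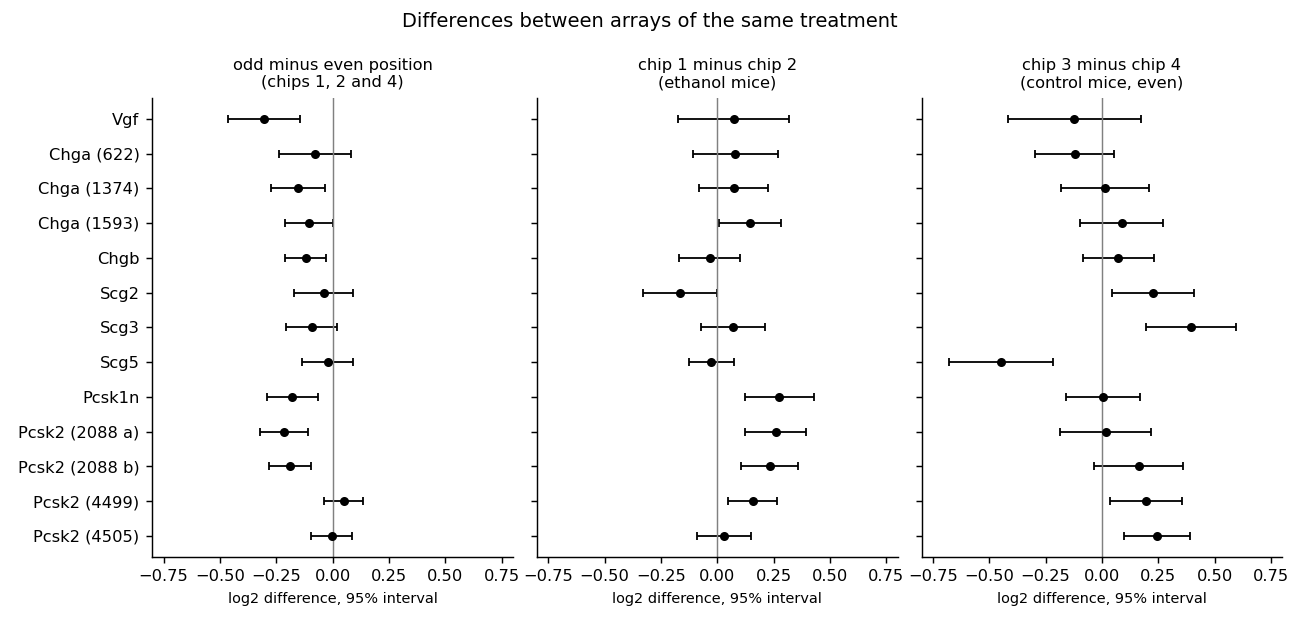
Log2 differences with 95% intervals (x axes) for each probe between arrays of the same treatment: odd minus even positions on chips 1, 2 and 4, chip 1 minus chip 2 in ethanol-treated mice, and chip 3 minus chip 4 in controls at even positions. Vgf lies at −0.31, 0.07 and −0.12, and the intervals of Scg3 and Scg5 are the farthest from 0 in the last comparison.

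Whether other members followed Vgf from mouse to mouse was asked with centred values. Each value was centred on its set of 4 arrays of the same chip and position parity. That removes treatment, chip and odd or even position, but not the order of the arrays within a set. In 7 comparisons, each with the brightest probe of a gene, Pearson's r lay between −0.38 (Pcsk1n) and 0.20 (Pcsk2). Other probes of the same genes, outside those comparisons, had r of −0.46 (Chga at base 622), 0.40 (Chga at base 1374) and 0.35 (Pcsk2 2088 b) with Vgf, given without a test. Pcsk1n had r = −0.38 (permutation p = 0.031, adjusted p = 0.22) and Spearman's rho = −0.33 (permutation p = 0.066, adjusted p = 0.46), and r = −0.29 without the 2 arrays farthest from the median of Vgf. None of the 7 passed an adjusted p of 0.05, and 1 had an unadjusted p below 0.05. Over all 78 pairs of the 13 probes 40 had a positive r, and the median was 0.02. Since Pcsk2 probes sharing 49 of 50 bases had r = 0.35, a low r does not show that transcripts varied apart.

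Furin was the gene whose centred values were most like those of Vgf among the 7925 other genes tested (r = 0.85 over 32 arrays), followed by Src (0.79), Cdc42bpb (0.78), Adam15 (0.78) and Gas2l1 (0.77). Furin encodes the ubiquitous convertase of the trans-Golgi network, Src a tyrosine kinase and Adam15 a membrane metalloprotease. By chip, r between Vgf and Furin was 0.92, 0.85, 0.81 and 0.83 over 8 arrays each. Furin differed between treatments by −0.12 ± 0.05, and by 0.20 on chip 3, where Vgf differed by −0.43. The genes were picked as the highest of 7925 coefficients, and their r is a description. Over the same arrays Vgf had r = −0.03 with the number of detected probes and −0.37 with the median signal of the array.

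**Figure D5:**
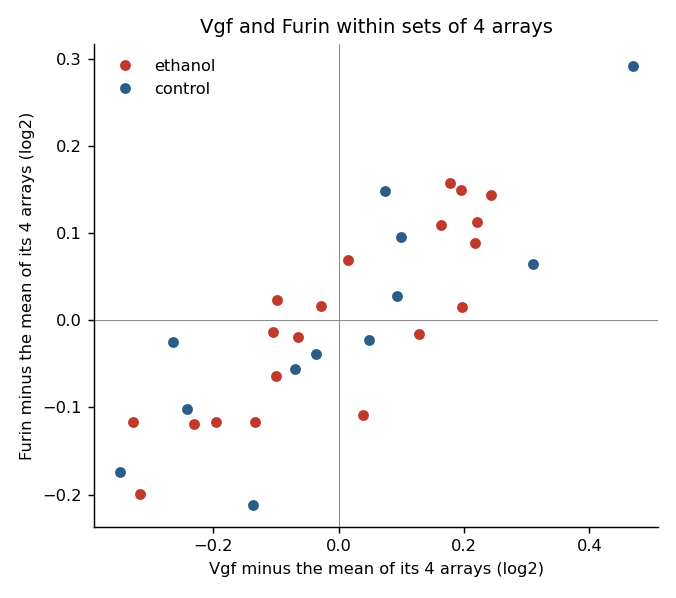
Vgf (x axis) and Furin (y axis) on 32 arrays, each as the log2 value minus the mean of its set of 4 arrays, with ethanol-treated mice in red and controls in blue. The points rise together, with r = 0.85 over all 32 arrays.

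The neighbours of the other members were different genes. The closest pairs of genes were Acpl2 (r = 0.84) and Cbln1 (0.82) for Scg2, Spcs1 (0.81) and Nptn (0.79) for Scg5, Dpp10 (0.71) and Sh3bgrl (0.68) for Pcsk1n, Palld (0.70) and Cdca4 (0.66) for Chga, Ttc14 (0.67) and Trpv2 (0.66) for Pcsk2, 1110008J03Rik (0.67) and LOC100047794 (0.63) for Chgb, and Rfwd2 (0.66) and Prkar1a (0.64) for Scg3. Spcs1 encodes a subunit of the signal peptidase, which cuts the leader from secreted proteins, and Cbln1 a secreted synaptic organiser.

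The rest of the pathway was described by lists of genes, each by its brightest probe. Over all genes tested in this way, 237 of 7926 were called higher and 397 lower in ethanol-treated mice (limma, FDR of 1%), with a median of −0.01. Of 8 other processing enzymes none was called by limma and 2 had an unadjusted p below 0.05, beside 31.8% of all probes, with a median of −0.04, and Ece1, an endothelin-converting enzyme, had the lowest p (−0.13 ± 0.05, limma adjusted p = 0.039). Of 8 other genes of dense-core granules 3 rose and none fell: Cadps, which primes granules for release (0.19 ± 0.04, limma adjusted p = 0.00056), Gnas (0.32 ± 0.08, 0.0055) and Syt4, a synaptotagmin of granules (0.26 ± 0.07, 0.0067). On chip 3 Cadps, Gnas and Syt4 differed by 0.15, −0.15 and 0.14, and none passed the FDR of 1% there. Among controls at even positions, chip 3 exceeded chip 4 in these genes by 0.14, 0.35 and 0.30 (limma adjusted p = 0.30, 0.038 and 0.034). Of 13 propeptides 1 fell, Grp, gastrin-releasing peptide (−0.15 ± 0.04, limma adjusted p = 0.0037), whereas Cort, Vip and Cck did not pass (−0.17, −0.13 and −0.10).

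Of 12 genes that neuronal activity induces, 4 fell: Arc (−0.51 ± 0.11, limma adjusted p = 0.0021), Fosb (−0.15 ± 0.04, 0.0028), Nptx2 (−0.18 ± 0.04, 0.0034) and Junb (−0.21 ± 0.06, 0.0076). On chip 3 these genes differed by −0.25, −0.05, −0.05 and −0.28, none passed the FDR of 1%, and the median of the list was 0.03. Odd minus even positions of chips 1, 2 and 4 gave −0.25, −0.01, −0.02 and −0.11 for the same genes. Controls at even positions gave −0.17, −0.06, −0.16 and 0.02 for chip 3 minus chip 4. Neither comparison passed the FDR of 1% for any of them. Bdnf, a neurotrophin that induces Vgf, was −0.01 over all arrays and 0.39 on chip 3, where it passed the FDR of 1% (limma adjusted p = 0.0081). In Bdnf the controls at even positions were lower on chip 3 than on chip 4 by −0.28 (limma adjusted p = 0.048). The centred mean of the 12 genes had r = −0.03 with Vgf (permutation p = 0.91).

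Of the cell type markers, those of excitatory neurons were lower together with Vgf. Of 4 tested markers 3 fell (Tbr1 −0.35 ± 0.06, limma adjusted p = 0.0003; Slc17a7 −0.27 ± 0.07, 0.0043; Nrgn −0.18 ± 0.05, 0.0051), and the mean of the 4 was between 11.79 and 12.13 in ethanol-treated mice and between 11.99 and 12.41 in controls. Camk2a did not pass over all arrays (−0.10, limma adjusted p = 0.33). On chip 3 Tbr1, Slc17a7, Camk2a and Nrgn differed by −0.53, −0.48, −0.31 and −0.05. The median of the 4 there was −0.39, beside −0.43 for Vgf and likewise −0.39 for the 8 oligodendrocyte markers. Among 4 pan-neuronal, 4 interneuron, 8 oligodendrocyte, 8 microglial, 6 endothelial, 3 olfactory bulb and 3 striatal markers none was called over all arrays (limma, with 10 of these 36 at an unadjusted p below 0.05), and of 7 astrocyte markers Aqp4 rose (0.53 ± 0.11, limma adjusted p = 0.0010). On chip 3, where treatment and position coincide, the medians were −0.39 for oligodendrocyte, 0.45 for interneuron, 0.24 for astrocyte and 0.24 for olfactory bulb markers. Odd minus even positions of chips 1, 2 and 4 gave medians of −0.15, 0.17, 0.03 and 0.18 for these lists. For excitatory neuron markers that median was −0.11. The part of the cell type markers in the difference of Vgf was not tested.

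The mean of each of the 13 lists was also set against Vgf over the centred values, a family chosen after seeing the data. 5 of the 13 passed an adjusted p of 0.05. The excitatory neuron list followed Vgf with r = 0.68 (permutation p = 0.00076, adjusted p = 0.0083) and rho = 0.69 (permutation p = 0.00054, adjusted p = 0.0049), and r = 0.63 without the 2 farthest arrays. Within it Camk2a had r = 0.73, Tbr1 0.62, Slc17a7 0.41 and Nrgn −0.14. The other processing enzymes had r = 0.66 (permutation p = 0.0013, adjusted p = 0.0083) and rho = 0.67 (permutation p = 0.0011, adjusted p = 0.0049), and r = 0.56 without the 2 farthest arrays. Their mean without Furin had r = 0.47, with Ece1 at 0.57 and Pam, which amidates peptides, at 0.05.

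The oligodendrocyte list went the opposite way, with r = −0.61 (permutation p = 0.0019, adjusted p = 0.0083) and rho = −0.63 (permutation p = 0.0011, adjusted p = 0.0049), and r = −0.57 without the 2 farthest arrays, and all 8 of its genes had a negative r. The striatal list had r = −0.49 (permutation p = 0.014, adjusted p = 0.036) and rho = −0.53 (permutation p = 0.010, adjusted p = 0.028), and r = −0.53 without those arrays. The pan-neuronal list had r = −0.56 (permutation p = 0.0092, adjusted p = 0.030) and rho = −0.54 (permutation p = 0.011, adjusted p = 0.028), and r = −0.44 without them. Mouse A13, not among the 2 arrays left out, had the highest striatal mean (9.75, next 9.18) and the highest oligodendrocyte mean (11.69, next 11.33). The coefficients without A13 were not computed. With values centred on group and chip alone 2 lists passed, the processing enzymes and excitatory neurons, and among the 16 ethanol-treated mice of chips 1 and 2 none of the 13 did.

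Promoters of 8 of the 10 genes were in the RefSeq table of GRCm38.p6, all but Vgf and Cpe. The cyclic AMP response element, through which the factor CREB acts, is TGACGTCA, a word that reads the same on both strands. It was present in 3 of the 8 windows from 250 bases before to 50 bases after the start, beside 1.79% of the 32851 windows in the table. The shorter word TGACG on either strand, which the full word contains, was present in 7 of the 8 and in 20.8% of all. In Scg2 the full word began 68 bases before the start, in Chgb 72 and in Pcsk1 78. The 250 bases before the start are shown for the detected genes that have it, with the word in capitals.
Scg2 (chr1:79440027-79440276, minus strand): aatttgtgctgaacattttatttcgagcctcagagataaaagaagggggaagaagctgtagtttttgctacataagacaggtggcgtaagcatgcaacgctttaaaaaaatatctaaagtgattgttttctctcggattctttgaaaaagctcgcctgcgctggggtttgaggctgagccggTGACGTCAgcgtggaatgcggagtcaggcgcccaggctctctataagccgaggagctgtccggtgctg
Chgb (chr2:132781392-132781641, plus strand): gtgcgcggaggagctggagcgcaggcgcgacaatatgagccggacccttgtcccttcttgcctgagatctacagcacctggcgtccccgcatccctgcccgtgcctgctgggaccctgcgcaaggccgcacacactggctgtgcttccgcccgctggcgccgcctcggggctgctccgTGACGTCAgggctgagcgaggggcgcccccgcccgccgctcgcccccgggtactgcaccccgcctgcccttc
Between those genes r was −0.40 over the 32 centred arrays, which was not tested, and ethanol minus control was 0.12 for Scg2 and −0.05 for Chgb. A match of letters describes the window and does not show that a factor binds there.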

How the data were processed

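1 array per mouse was read for 20 ethanol-treated and 12 control mice, grouped by the condition in the labels, which give no batch of RNA extraction. The Methods state that every extraction batch held mice of both groups, and which mice shared a batch is not given. The authors deposited a table that is not normalized: for each probe the intensity (mean bead signal, linear scale), a detection p-value against negative control beads, how far its beads scattered (a standard error) and how many there were. The labels name lumi and limma. The software and background step behind the deposited intensities are not given in the sources used here.

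From these, a variance-stabilizing transform, written after the one in lumi, and quantile normalization were computed in R 4.3.3. 10187 of the 25697 probes were compared, those detected (p-value below 0.01) on 24 or more of the 32 arrays. Contrasts were fitted by limma 3.58.1 on log2-scale values over all these probes, with Benjamini-Hochberg adjustment, and called at an FDR below 1%. Relations with Vgf used 100000 permutations within the 8 sets of 4 arrays, two-sided, in Python 3.11.15 with numpy 2.4.6. The limma and permutation steps were also tested on simulated data.

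The named genes were all members with every probe, up to 4 genes of lowest p of each other list, and the genes most correlated with Vgf (5) and with each other member (2). A few others were named after their values were seen: Snap25, Nefl, Bdnf and Pam. The members, the lists and the tests were chosen with earlier results of these data known. P-values measure the spread between mice. Between 9480 and 11544 probes were detected per array, and the number of arrays limits the precision. Alternatives to each setting are given in the closing section.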

Additional observations from a re-analysis of the deposited data

Results flagged for a closer look

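Of 65 sets of 4 to 8 arrays (a probe in a group on a chip), 1 held a value far from the rest, where chance gives about 1 in 20. For Pcsk1n among the controls of chip 3, mouse C56 was at 10.66 and the other 3 between 10.88 and 10.92, and the gap was 0.867 of the range. The same mouse had the highest Vgf of all arrays.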

How the results depend on the processing

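Vgf was lower in ethanol-treated mice under all 15 alternatives for all arrays, by −0.61 to −0.12, and under all 15 on chip 3, by −0.52 to −0.27. Alternatives that change only the probes tested or the rule for calling leave this difference the same by construction. Since the genes were selected on this comparison, nothing is read from the shared sign. Of the 13 probes, the count past the threshold over all arrays was 1 as reported. It was 0 with chip as a fixed block, 0 with chip and odd or even position, 0 at even positions alone, 2 at odd positions alone (Vgf and Scg5), 4 for chips 1 and 2 against chip 4 and 5 with an FDR of 10% and 1.1-fold. The 2 settings by position were chosen after seeing the data. Over all probes the count was 840, and 149 with median scaling, 21 with chip as a fixed block, 79 with chip as a random block, 2 with chip and position, 4 at even positions, 453 at odd positions and 1528 with the wider rule.

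On chip 3 the count of 2 was 1 with log2 values, 0 with normexp, 1 with median scaling, 0 over all probes of the array, 1 with probes detected on all arrays and 6 with the wider rule. Leaving out each mouse in turn gave 0 to 1. For odd minus even the count of 2 was 1 with log2 values, 0 with normexp, 0 with median scaling, 0 over all probes and 5 with the wider rule. It was 3 for chip 1 minus chip 2 with the wider rule, and for controls of chips 3 and 4 it was 3 with the wider rule and 1 with array weights, against 0. Over all probes, median scaling moved chip 1 minus chip 2 from 1 to 136, odd minus even from 377 to 0 and the control chips from 164 to 0. Normexp moved chip 3 from 329 to 21, odd minus even to 241, chip 1 minus chip 2 to 0 and the control chips to 3, and the control chips gave 89 over all probes and 309 with array weights. With the wider rule these counts were 1737, 1322, 198 and 1171. With a mouse left out chip 3 gave 118 to 402 and the control chips 42 to 197.

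Median scaling turned the sign of Vgf for chip 1 minus chip 2 (−0.066) and for controls of chip 3 minus chip 4 (0.10), values within their errors. It shifted the median of all probes by 0.05. 0 of 7 members varied with Vgf under all 4 alternatives. Of the lists, 5 varied with Vgf, 3 with median scaling, 2 with centring on group and chip and 0 in the ethanol-treated mice of chips 1 and 2. The causes were not tested. No paired analysis was possible because the groups share no replicate numbers.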
